A study of Mus musculus with 6 samples.

Results

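The genes described here are 54 genes of G2 and mitosis, the last phases of the cell cycle, listed by the known roles of their products. No measured value decided which genes were listed, but the list was drawn up with earlier results of these arrays known. They were measured in E14.5 fetal liver cells of Pogz+/+ and Pogz−/− mouse embryos on Affymetrix mouse genome arrays, which read RNA from near its 3′ end with sets of short probes (probe sets). 53 of the 54 genes had a probe set annotated to them alone, out of 18193 such genes, and Ccnb1 had none and is not analysed here. Each gene was read from its brightest such probe set, and the 53 genes held 125 probe sets in all.

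There were 3 arrays of Pogz+/+ fetal liver (labelled Pogz-WT) and 3 of Pogz−/− fetal liver (labelled Pogz-KO), all on a C57BL/6 congenic background. Pogz encodes a zinc-finger protein of the nucleus. The Pogz−/− embryos carried a germline deletion of the exons for the CENPB and DDE domains and part of the zinc finger region, made by crossing a floxed allele to β-actin-cre mice, so every cell of the embryo lacked them and not only the blood cells. The livers were minced and passed through a strainer with no sorting of cells, and the labels call the arrays biological replicates without saying whether an array held 1 liver or several.

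A cell in G2 raises the kinase CDK1 with its cyclins, and CDC25 phosphatases and the WEE1 kinase set when CDK1 is switched on. In mitosis condensin compacts the chromosomes, kinetochores and motor kinesins attach and move them, the spindle checkpoint delays anaphase until all are attached, and the anaphase promoting complex with CDC20 then frees separase from its inhibitor securin. Transcription of these genes peaks together late in the cycle, and the fetal liver at this age is largely made of dividing erythroblasts.

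1 array, Pogz+/+ replicate 1, differed from the rest before any comparison of genotypes. The signal of its β-actin control was 52.3 times as high at the 3′ end as at the 5′ end, a ratio that read 5.50 in Pogz+/+ replicate 2, 6.63 in replicate 3 and at most 4.09 in Pogz−/−. Gapdh gave 15.3, 7.37 and 9.29 in Pogz+/+ replicates 1 to 3 and no more than 5.08 in Pogz−/−. Such ratios rise when RNA is broken or copied short. All 3 Pogz−/− arrays had lower ones than any Pogz+/+ array, and their part in the differences between genotypes was not tested. Over all genes, Pearson's r between this array and each other array was 0.837 to 0.852, and between the others 0.911 to 0.931. Pogz itself checked no label, and where its probes lie relative to the deletion was not known here. Its brightest probe set read 9.17, 9.03 and 8.95 on the log2 scale in Pogz+/+ replicates 1 to 3 and 9.16, 9.22 and 9.33 in the Pogz−/− replicates. Its dimmer probe sets changed by -0.41, 2.05 and 1.90 without Pogz+/+ replicate 1, and none was called. Those at 2.05 and 1.90 read higher in every Pogz−/− array than in any Pogz+/+ array. All results are therefore given with all 6 arrays and without Pogz+/+ replicate 1.

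The G2 and mitosis genes were well detected. Their mean log2 signal ran from 6.70 (Foxm1) to 13.4, with a median of 10.1 against 5.67 over all genes, and none lay under that all-gene median. With all 6 arrays none of the 53 genes passed the test (limma, Benjamini-Hochberg adjusted p under 0.05 over all 18193 genes), and neither did any other gene (0% called). The lowest adjusted p of a member was 0.316, for Spc25. At an unadjusted p under 0.05, 7 members were lower in Pogz−/− and 0 higher, beside 9.26% of all genes lower and 3.87% higher. The unmoderated t-test that the study's methods name also called 0 members. For these arrays the study itself used GeneSpring with a 1.5-fold cutoff and a false discovery rate of 0.05, and it did report genes that differed.

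Without Pogz+/+ replicate 1, 13 of the 53 genes (24.5%) fell in the arrays labelled Pogz-KO and 0 rose on the deposited scale (2 fell and 3 rose under median centring), where 2.07% of all genes were called lower and 2.41% higher. This comparison of 2 Pogz+/+ with 3 Pogz−/− arrays let the variance depend on the signal and down-weighted outlying genes (limma with trend and robust). The genes that fell were Cdk1, Cdc25b, Plk1, Incenp, Cdca8, Pttg1, Kif23, Kif2c, Kif22, Cenpf, Spc25, Hmmr and Ncaph, by 1.31-fold to 1.77-fold with adjusted p from 0.00146 to 0.0399. In bulk tissue, fewer cells in G2 and mitosis and less of these RNAs per cell cannot be told apart. With ordinary limma variances on the same 5 arrays 0 members were called (14 lower and 0 higher at an unadjusted p under 0.05, beside 7.58% and 5.53% of all genes), and when each array was centred on its own median signal only Incenp and Spc25 stayed lower while Bub1, Kif20b and Smc4 were called higher, beside 0.55% of all genes lower and 10.1% higher. Leaving out a further array left 2 genes called lower without Pogz+/+ replicate 2, 1 (Spc25) without Pogz+/+ replicate 3, and 12, 7 and 2 without Pogz−/− replicates 1 to 3.

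Pogz+/+ replicate 1 changed the sign of some members. By sign alone, 34 of 53 genes (64.2%) had a negative log2 fold change with 6 arrays, close to the 60.4% of all genes, and 41 (77.4%) had one without Pogz+/+ replicate 1, against 57.6% of all genes. The sign differed for 9 genes (17.0%), and 8 of these were negative without that array. The median log2 fold change of the members was -0.10 with 6 arrays and -0.21 without Pogz+/+ replicate 1, while that of all genes was -0.17 and -0.10. On the deposited scale the members were thus less negative than all genes with 6 arrays and more negative without replicate 1. The 6-array order depended on the setting: the medians were -0.17 for members and -0.016 for all genes after quantile normalization, and -0.10 and 0.017 with dim genes left out.

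**Figure D1:**
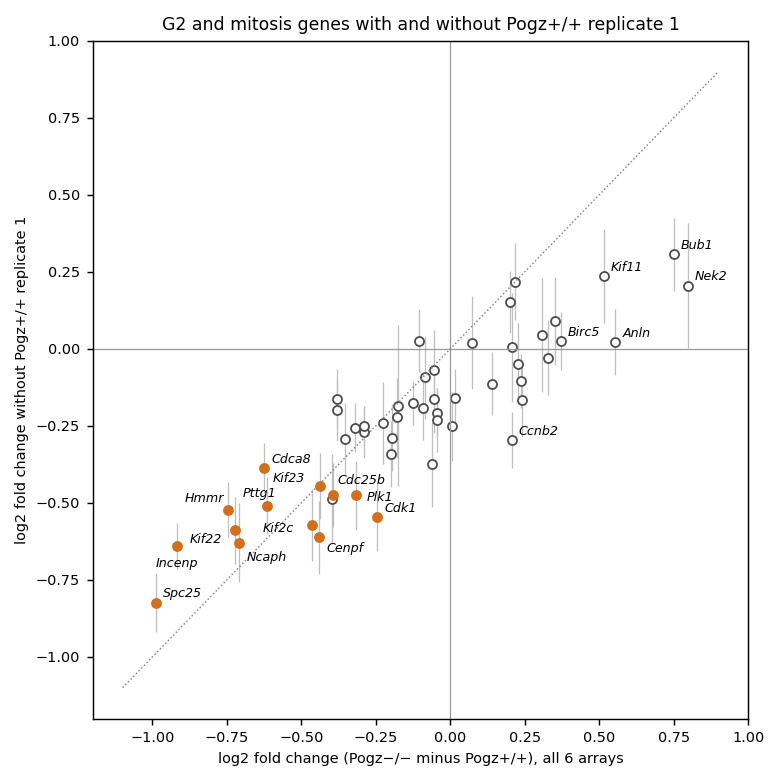
Each circle is 1 of the 53 genes, with its log2 fold change (Pogz−/− minus Pogz+/+) over all 6 arrays on the x axis and without Pogz+/+ replicate 1 on the y axis; vertical bars are the standard error of the latter and the dotted line marks equal values. The 13 filled circles fell without that array on the deposited scale (2 under median centring), none passed with it, and most genes right of 0 moved down towards or below 0 once it was left out.

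Seen array by array, the 3 Pogz−/− arrays lay close to each other and Pogz+/+ replicate 1 was scattered on both sides. Against the mean of Pogz+/+ replicates 2 and 3, the members' median log2 signal differed by -0.25, -0.19 and -0.22 in Pogz−/− replicates 1 to 3 and by -0.28 in Pogz+/+ replicate 1. The spread of these differences over genes was 0.62 (SD) in Pogz+/+ replicate 1 and 0.23 to 0.31 in the Pogz−/− arrays. In Pogz+/+ replicate 1, 20 members were over 0.5 log2 units below the other Pogz+/+ arrays and 5 were over 0.5 above. In the Pogz−/− arrays 7, 10 and 10 members were that far below and 0 above. The same counts were not made over all genes. The median signal of all genes was also lower in Pogz−/−. It was 5.87 and 5.80 in Pogz+/+ replicates 2 and 3 and 5.60, 5.68 and 5.62 in the Pogz−/− replicates. The SD between arrays of a member had a median of 0.10 over the Pogz−/− arrays, 0.075 over Pogz+/+ replicates 2 and 3 and 0.29 over all 3 Pogz+/+ arrays.

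**Figure D2:**
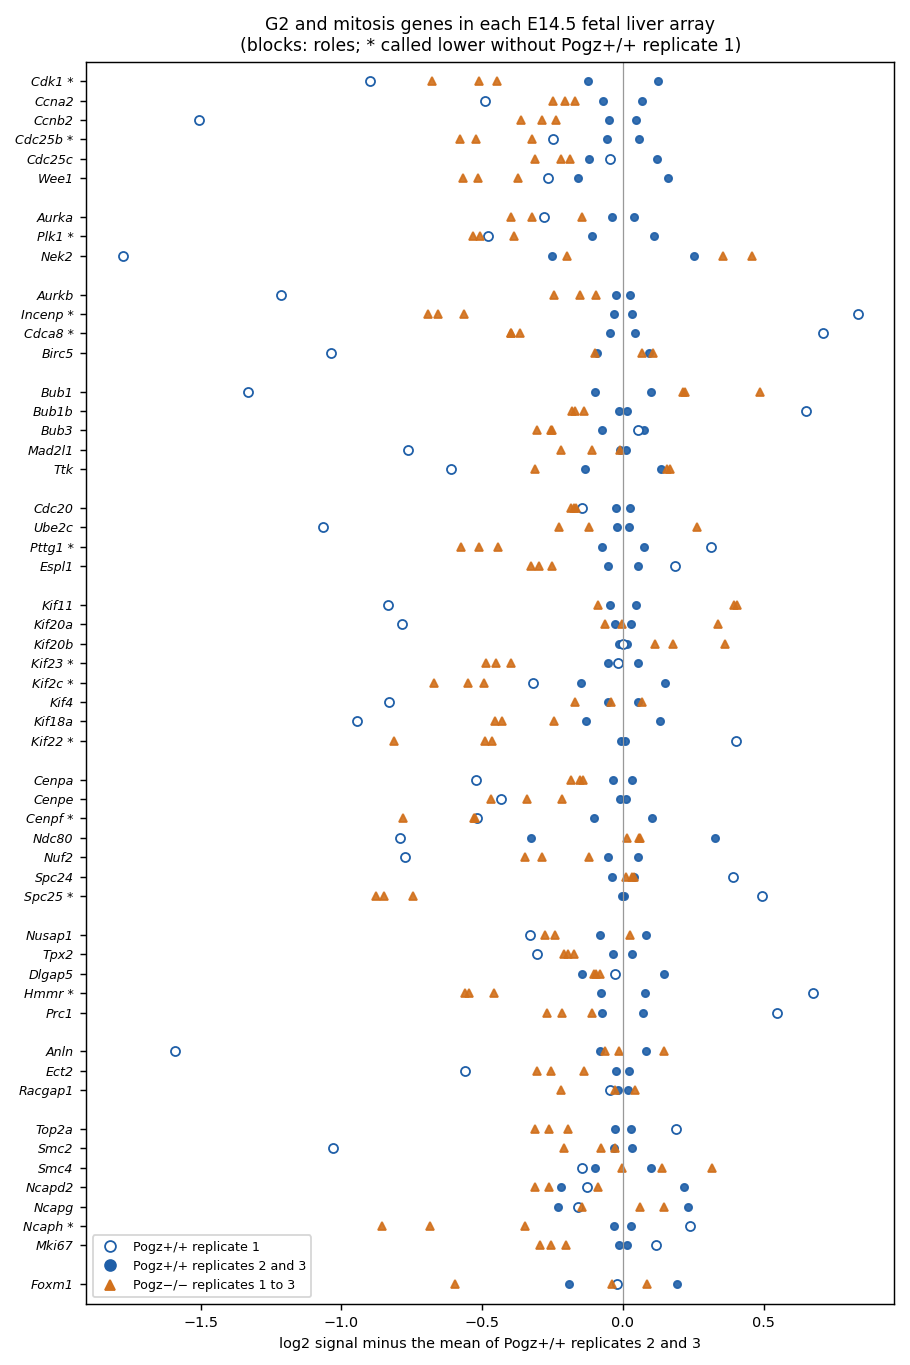
Log2 signal of each gene in each array, drawn as the difference from the mean of Pogz+/+ replicates 2 and 3 (x axis), with genes grouped by role. On the deposited scale triangles (Pogz−/−) mostly sit left of 0 by as much as -0.88, and open circles (Pogz+/+ replicate 1) range from -1.78 for Nek2 to 0.83 for Incenp.

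With the 6 arrays compared without a model, all Pogz−/− arrays lay below all Pogz+/+ arrays for 20 of the 53 genes (37.7%), as they did for 16.3% of all genes. They lay above for 2 genes (3.77%), Bub1 and Kif20b, against 10.8% of all genes. 11 of the 13 genes that fell without Pogz+/+ replicate 1 were among the 20. For the other two, Cdk1 and Plk1, Pogz+/+ replicate 1 read as low as the Pogz−/− arrays. Pogz+/+ replicate 1 was the lowest of all 6 arrays for 23 members (43.4%, all genes 24.2%) and the highest for 13 (24.5%, all genes 42.8%).

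The scaling of the arrays also moved the members. As deposited, every array had the same trimmed mean, but the median log2 signal of all genes was 6.28 in Pogz+/+ replicate 1 and 5.60 to 5.87 elsewhere. After quantile normalization the members' differences from Pogz+/+ replicates 2 and 3 were -0.24, -0.17 and -0.26 in the Pogz−/− arrays. After centring each array on its median they were 0.036, 0.032 and 0.085, and -0.85 in Pogz+/+ replicate 1. Centring moved the median of all genes as well, to 0.18 without Pogz+/+ replicate 1, and the members' median was then 0.064. In the 5 arrays the members' median was below that of all genes as deposited and after quantile normalization (-0.21 against -0.022). Centring shifts every gene of an array alike, so it could not change that order, and under it the members' median was positive.

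**Figure D3:**
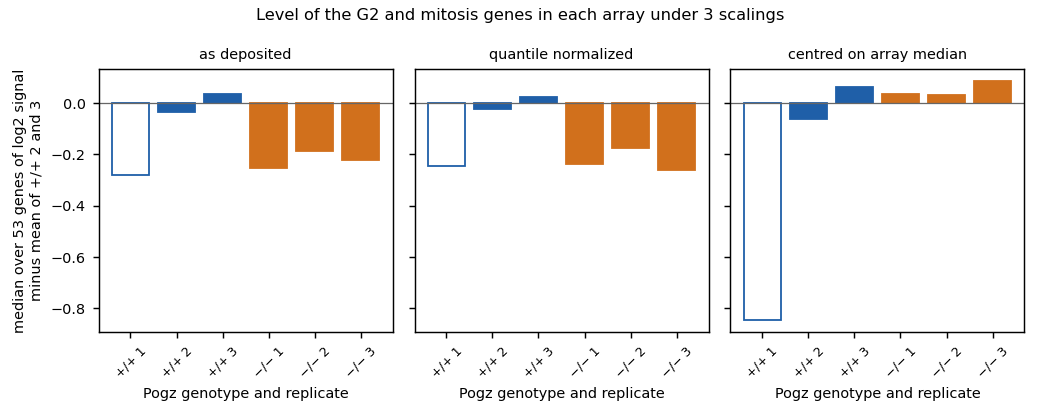
Bars show, for each array (x axis, Pogz genotype and replicate), the median over the 53 genes of the log2 signal minus the mean of Pogz+/+ replicates 2 and 3, for the deposited values, for quantile normalized values and for values centred on each array's median. The Pogz−/− bars lie between -0.26 and -0.17 in the first 2 panels and between 0.032 and 0.085 in the third.

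G2 and mitosis promoters are known for CCAAT boxes, which bind NF-Y, and for the cell cycle genes homology region (CHR), which binds the DREAM and MuvB complexes. These letters were looked for in the RefSeq promoter windows of 300 bases (250 before and 50 after the start, GRCm38.p6), of which 43 of the 54 genes had 1. CCAAT, on either strand, was in 74.4% of the members' windows and 37.9% of all 27025 windows. A CHR, taken as TTTGAA on either strand or as its variant with the letters TTTAAA, was in 79.1% and 27.8%, and both were in 67.4% and 10.9%. Both were present in 66.7% of 12 genes that fell and in 66.7% of 30 that were measured and not called. The 150 bases before the start are printed for 5 genes that fell and for Bub1, with CCAAT or CHR letters of either strand in capitals. By its brightest probe set, Bub1 was the member with the largest positive log2 fold change without Pogz+/+ replicate 1. The 5 printed genes that fell all had both motifs in their windows. Of the others that fell, Pttg1 and Ncaph had neither, Cdc25b had no CHR and Kif2c had no CCAAT. The CHR letters of Spc25 and Hmmr lie after the start, outside the printed bases, and Bub1 had no CHR in its window. The shares were not adjusted for base composition, and a match is not a measured binding site.
Cdk1, chr10:69352913-69353062, minus strand: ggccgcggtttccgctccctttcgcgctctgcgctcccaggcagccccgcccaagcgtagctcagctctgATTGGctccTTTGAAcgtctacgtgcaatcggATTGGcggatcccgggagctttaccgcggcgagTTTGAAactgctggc
Plk1, chr7:122159285-122159434, plus strand: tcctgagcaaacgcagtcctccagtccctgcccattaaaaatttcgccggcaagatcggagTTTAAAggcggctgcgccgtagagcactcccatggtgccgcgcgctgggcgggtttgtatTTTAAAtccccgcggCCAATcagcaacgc
Kif22, chr7:127042421-127042570, minus strand: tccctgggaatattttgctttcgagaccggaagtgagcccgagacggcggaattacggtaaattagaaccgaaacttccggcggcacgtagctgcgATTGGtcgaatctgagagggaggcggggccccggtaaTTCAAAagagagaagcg
Spc25, chr2:69206214-69206363, minus strand: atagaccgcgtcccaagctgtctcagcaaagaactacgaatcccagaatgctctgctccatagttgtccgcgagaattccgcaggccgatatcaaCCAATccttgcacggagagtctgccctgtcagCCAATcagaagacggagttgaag
Hmmr, chr11:40733438-40733587, minus strand: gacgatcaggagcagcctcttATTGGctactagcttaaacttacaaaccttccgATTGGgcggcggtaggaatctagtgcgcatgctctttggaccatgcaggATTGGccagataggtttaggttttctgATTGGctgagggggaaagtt
Bub1, chr2:127831860-127832009, minus strand: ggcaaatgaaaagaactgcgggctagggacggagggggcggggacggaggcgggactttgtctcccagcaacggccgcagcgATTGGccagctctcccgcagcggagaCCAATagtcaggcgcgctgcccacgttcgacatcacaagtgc

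Among CDK1, its cyclins and their regulators, 2 of 6 genes fell without Pogz+/+ replicate 1 (Cdk1 and Cdc25b), and the median log2 fold change was -0.39. Cdk1, the kinase that drives entry into mitosis, read 10.10, 11.12 and 10.87 in Pogz+/+ replicates 1 to 3 and 10.55, 10.49 and 10.32 in the Pogz−/− replicates. Pogz+/+ replicate 1 was the lowest of the 6 arrays, so the genotypes overlapped and Cdk1 changed by -0.25 with 6 arrays (adjusted p 0.721) and by -0.55 (SE 0.11, adjusted p 0.0176) without that array. Cdc25b, a phosphatase that activates CDK1, read 10.87, 11.06 and 11.17 in Pogz+/+ and 10.59, 10.79 and 10.53 in Pogz−/− arrays. Its genotypes did not overlap, and it changed by -0.47 (SE 0.10, adjusted p 0.0238) without replicate 1.

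Ccnb2, a B-type cyclin and partner of CDK1, shows how far 1 array carried a gene. It read 9.47, 11.02 and 10.92 in Pogz+/+ and 10.73, 10.69 and 10.61 in Pogz−/− arrays. The log2 fold change was 0.21 with 6 arrays (adjusted p 0.844) and -0.30 without replicate 1 (adjusted p 0.104), so neither passed. Ccna2 (cyclin A), Cdc25c (a second CDK1 phosphatase) and Wee1 (the kinase that restrains CDK1) had log2 fold changes of -0.21, -0.24 and -0.49 without replicate 1 and did not pass.

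Of the centrosome and spindle kinases 1 of 3 fell. Plk1, which acts in centrosome maturation, mitotic entry and cytokinesis, read 9.52, 9.89 and 10.11 in Pogz+/+ and 9.47, 9.61 and 9.49 in Pogz−/− arrays. Replicate 1 lay among the Pogz−/− values, and without it Plk1 changed by -0.48 (SE 0.11, adjusted p 0.0369). Nek2, a kinase of centrosome separation, varied most of all members over the 3 Pogz+/+ arrays (SD 1.06). It read 7.05, 9.08 and 8.58 in Pogz+/+ and 8.63, 9.29 and 9.18 in Pogz−/− arrays, and its log2 fold change went from 0.80 with 6 arrays to 0.20 without replicate 1 (adjusted p 0.642). Aurka, the spindle pole kinase, was at -0.29 (adjusted p 0.183).

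Of the chromosomal passenger complex, which corrects chromosome attachments, 2 of 4 subunits fell. Incenp, its scaffold, read 13.81, 12.94 and 13.01 in Pogz+/+ and 12.41, 12.28 and 12.32 in Pogz−/− arrays, with no overlap and the highest value in replicate 1. It changed by -0.64 (SE 0.075, adjusted p 0.00146) without that array and by -0.92 (adjusted p 0.347) with it. Cdca8 (borealin) read 12.51, 11.75 and 11.84 in Pogz+/+ and 11.40, 11.40 and 11.43 in Pogz−/− arrays. It changed by -0.39 (SE 0.080, adjusted p 0.0197) without replicate 1. The kinase Aurkb and the survivin gene Birc5 went the other way in replicate 1, which read low for both (-1.21 and -1.04 log2 units from the mean of the other Pogz+/+ arrays), and their log2 fold changes of 0.24 and 0.37 with 6 arrays became -0.16 and 0.025. This contrast in replicate 1 rests on the brightest probe sets. The dimmer ones of Incenp were at -0.77, 0.068, -0.75 and 1.53 from the mean of the other Pogz+/+ arrays, and those of Cdca8 at -0.48 and -1.12. Their log2 fold changes without replicate 1 were 0.071, -0.22, 0.93 and -1.17 for Incenp and -0.31 and 0.080 for Cdca8.

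None of the 5 spindle checkpoint genes passed in either comparison. Bub1, a checkpoint kinase at kinetochores, read 8.54, 9.97 and 9.77 in Pogz+/+ and 10.09, 10.09 and 10.36 in Pogz−/− arrays. All Pogz−/− arrays were above all Pogz+/+ arrays, and the log2 fold change was 0.75 with 6 arrays (adjusted p 0.444) and 0.31 without replicate 1 (adjusted p 0.200). Bub1b (BubR1) and Bub3, its partners, were at -0.16 and -0.27 without replicate 1, with all Pogz−/− arrays below all Pogz+/+ arrays. Mad2l1, which inhibits CDC20, and Ttk (Mps1), which starts the checkpoint signal, were at -0.11 and 0.0045 and overlapped.

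Of the genes that trigger anaphase, 1 of 4 fell. Pttg1, or securin, read 11.66, 11.42 and 11.27 in Pogz+/+ and 10.77, 10.83 and 10.90 in Pogz−/− arrays. The groups did not overlap, and Pttg1 changed by -0.51 (SE 0.092, adjusted p 0.0109) without replicate 1. Its dimmer probe sets were at 0.39 and -0.90. Espl1, the separase that securin inhibits, was at -0.29 (adjusted p 0.215) and Cdc20, the activator of the anaphase promoting complex, at -0.17 (adjusted p 0.223), and for both all Pogz−/− arrays lay below all Pogz+/+ arrays. Ube2c, the ubiquitin-conjugating enzyme of that complex, was at -0.028.

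Of the 8 mitotic kinesins 3 fell without Pogz+/+ replicate 1, and 3 others had positive log2 fold changes that did not pass. Kif22, which pushes chromosome arms away from the poles, read 12.21, 11.80 and 11.82 in Pogz+/+ and 11.34, 11.00 and 11.32 in Pogz−/− arrays, a change of -0.59 (SE 0.11, adjusted p 0.0123) without replicate 1. Kif2c (MCAK), which takes apart microtubule ends, read 9.97, 10.14 and 10.44 in Pogz+/+ and 9.80, 9.74 and 9.62 in Pogz−/− arrays, a change of -0.57 (SE 0.12, adjusted p 0.0190). Kif23 (MKLP1), of the central spindle, read 9.75, 9.71 and 9.81 in Pogz+/+ and 9.37, 9.31 and 9.27 in Pogz−/− arrays, a change of -0.44 (SE 0.11, adjusted p 0.0399). In these 3 genes the genotypes did not overlap in any of the 6 arrays, and Kif23 read nearly the same in all 3 Pogz+/+ arrays. These are the brightest probe sets, and the dimmer ones of Kif23 were at 0.058 and 0.27 without replicate 1. Those of Kif2c were at -0.061, -0.16 and -0.61 and those of Kif22 at -0.34 and -0.47, and none was called.

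Kif11 (Eg5), which separates the spindle poles, read 8.39, 9.18 and 9.28 in Pogz+/+ and 9.14, 9.63 and 9.62 in Pogz−/− arrays. The genotypes overlapped, with log2 fold changes of 0.51 with 6 arrays and 0.24 without replicate 1 (adjusted p 0.449). This is the brightest probe set, and the dimmer ones of Kif11 were negative, at -0.35 and -0.21 without replicate 1. Kif20b, a kinesin of cytokinesis, read 8.84, 8.85 and 8.82 in Pogz+/+ and 8.95, 9.20 and 9.02 in Pogz−/− arrays. It was 0.22 higher with and without replicate 1, did not overlap and did not pass (adjusted p 0.388 without that array). The dimmer probe sets of Kif20b were at 0.41, -0.96 and 0.61 without replicate 1. Kif20a, Kif4 and Kif18a were at 0.090, -0.048 and -0.37 without replicate 1.

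At the centromere and kinetochore 2 of 7 genes fell. Spc25, a subunit of the NDC80 complex that binds microtubules, had the largest fall of all members: it read 11.21, 10.71 and 10.72 in Pogz+/+ and 9.86, 9.84 and 9.97 in Pogz−/− arrays. Every Pogz+/+ array lay well above every Pogz−/− array, and the change was -0.82 (SE 0.097, adjusted p 0.00149) without replicate 1 and -0.99 (adjusted p 0.316) with it. Only its brightest probe set passed, and the dimmer one was at -0.15. For the other subunits of the complex, whose difference from Spc25 was not tested, Ndc80 was at 0.044, Nuf2 at -0.25 and Spc24 at 0.027 without replicate 1, and none passed. Cenpf, a large protein of the G2 nucleus and kinetochore, read 9.86, 10.28 and 10.48 in Pogz+/+ and 9.60, 9.85 and 9.86 in Pogz−/− arrays. It changed by -0.61 (SE 0.12, adjusted p 0.0148), and replicate 1 lay only just above the highest Pogz−/− array. Cenpa, the centromeric histone H3, and the kinesin Cenpe were at -0.16 and -0.34.

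Of the spindle microtubule proteins Hmmr fell, and the other 4 were between -0.20 and -0.092 without replicate 1. Hmmr, which acts in spindle assembly, read 12.21, 11.45 and 11.61 in Pogz+/+ and 11.07, 10.97 and 10.99 in Pogz−/− arrays, a change of -0.52 (SE 0.090, adjusted p 0.00863). This is its brightest probe set, where replicate 1 lay 0.67 above the mean of the other Pogz+/+ arrays. The dimmer ones changed by -0.20, -0.12, -0.28 and 0.26, and none was called. In them replicate 1 lay at -0.90, -0.91, -0.72 and 1.17 from that mean. Nusap1, Tpx2, Dlgap5 and Prc1, which bundle or nucleate spindle microtubules, were negative in both comparisons and did not pass.

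None of the 3 cytokinesis genes passed. Anln (anillin), which organizes the contractile ring, read 8.59, 10.27 and 10.10 in Pogz+/+ and 10.12, 10.17 and 10.33 in Pogz−/− arrays. Replicate 1 was over 1 log2 unit below every other array, and the log2 fold change of 0.55 with 6 arrays was 0.022 without it. Ect2 and Racgap1, which switch on and localize RHOA at the division plane, were at -0.23 and -0.068.

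Of condensin, Top2a and Mki67, 1 of 7 genes fell. Ncaph, a condensin I subunit, read 11.95, 11.68 and 11.74 in Pogz+/+ and 11.37, 11.03 and 10.86 in Pogz−/− arrays, a change of -0.63 (SE 0.13, adjusted p 0.0186) with no overlap. Only the brightest of its probe sets passed, and the dimmer one was at -0.16. None of its partners in condensin I passed, and the difference from Ncaph was not tested: Ncapd2 was at -0.22, Ncapg at 0.020, Smc2 at -0.10 and Smc4 at 0.15. Mki67, the Ki-67 antigen used to count cycling cells, was among the brightest members at 13.66, 13.53 and 13.56 in Pogz+/+ and 13.25, 13.34 and 13.29 in Pogz−/− arrays. The groups did not overlap, and the change of -0.25 had an adjusted p of 0.0565. Top2a, which untangles DNA before anaphase, was at -0.26 (adjusted p 0.106), also with no overlap. Foxm1, the transcription factor that activates many of these genes, was the dimmest member at 6.77, 6.99 and 6.60 in Pogz+/+ and 6.19, 6.88 and 6.75 in Pogz−/− arrays, which overlapped, with a log2 fold change of -0.18 in both comparisons.

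The probe sets of a gene often differed in direction. Of the 38 members with more than 1 probe set, 17 had all their probe sets on the same side of 0 without Pogz+/+ replicate 1 and 21 had both signs. Tested over all probe sets, 11 of the members' 125 were called lower and 1 higher, beside 1.22% and 1.45% of all probe sets. Plk1 and Kif23 missed the threshold there. None of the 23 dimmer probe sets of the genes that fell was called. Of the 23, 15 were lower in Pogz−/−, beside 46 of the 72 dimmer probe sets of all members. Of all genes, each read from its brightest probe set, 57.6% were lower. In 4 of the 10 genes that fell and had more than 1 probe set, every probe set was lower. Incenp, Cdca8, Pttg1, Kif23, Cenpf and Hmmr had both signs. Incenp ranged from -1.17 to 0.93 over its 5 probe sets, Pttg1 from -0.90 to 0.39 over 3, and Kif22 from -0.59 to -0.34 over 3. With the mean of a gene's probe sets in place of the brightest, 0 members were called by limma and the median was again -0.21.

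The 1 probe set called higher was a dimmer one of Smc4, the ATPase core of condensin. It read 10.43, 10.78 and 10.53 in Pogz+/+ and 11.20, 11.52 and 11.27 in Pogz−/− arrays, a change of 0.68 (SE 0.12, adjusted p 0.0128) without replicate 1. Its genotypes did not overlap, and the other 2 probe sets of Smc4 were also positive. Probe sets whose names end in _x_at or _s_at hold probes that can also match other sequences. They read 13 members, of which 6 fell (46.2%), while 7 of the other 40 fell (17.5%). Over all genes the shares called lower were 6.91% and 1.56%. The 6 members were Incenp, Kif22, Kif2c and Ncaph (_x_at) and Cdca8 and Pttg1 (_s_at).

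**Figure D4:**
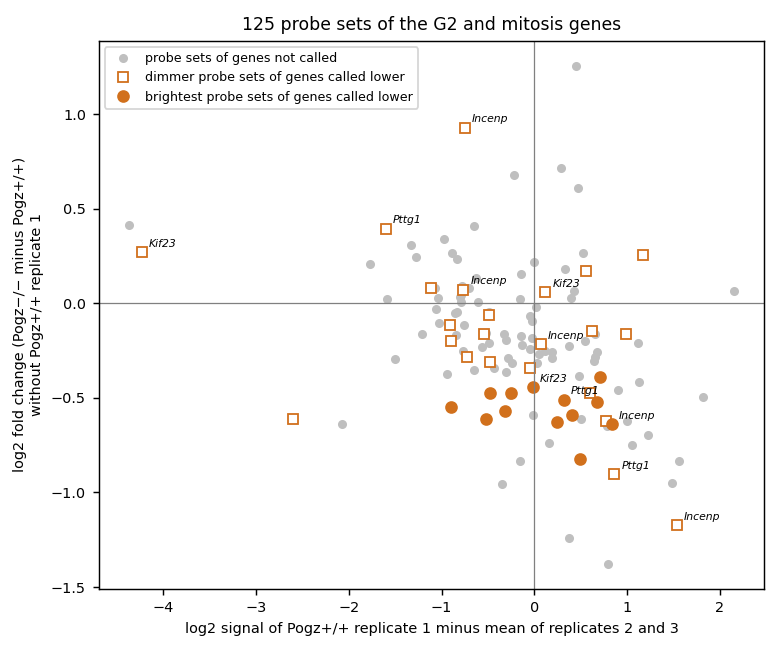
Each mark is 1 of 125 probe sets: how far Pogz+/+ replicate 1 lay from the mean of replicates 2 and 3 (x axis, log2) and the log2 fold change of Pogz−/− over Pogz+/+ without that array (y axis). Filled circles, the brightest probe sets of the 13 genes that fell, lie between -0.82 and -0.39, and open squares, their 23 dimmer probe sets, spread from -1.17 to 0.93.

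How a probe set behaved in Pogz+/+ replicate 1 moved with its change in Pogz−/−. To keep the values separate, the difference of replicate 1 from 1 of the other Pogz+/+ arrays was set against the difference of the Pogz−/− mean from the third. Pearson's r across the 53 genes was -0.54 and -0.43 for the 2 ways of doing so, and -0.43 in both across the 125 probe sets. It was -0.11 and -0.10 over all genes, and -0.30 and -0.29 over the genes at or above the median signal. Genes high in replicate 1 thus tended to be lower in Pogz−/−. Genes are not independent replicates, and the part of the 3′ to 5′ ratios in this relation was not tested.

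Of the 2 main comparisons, only that without Pogz+/+ replicate 1 called other genes of the cycle, and the values that follow are from it. Over all genes 2.07% were called lower and 2.41% higher there, the median log2 fold change was -0.10 and 57.6% were negative. The 2 comparisons also differed in their variance settings. With plain variances on the same 5 arrays 0 of all genes were called. Of 65 other mitosis genes 6 fell and 0 rose, with a median of -0.22. Cit (citron kinase) changed by -1.22, Sgo1 (shugoshin, which guards cohesion) by -0.64, Cdca3 by -0.56 and Cks1b, a small partner of CDK1, by -0.36. Of 42 DNA replication genes 7 fell and 0 rose (median -0.16), among them Mcm4 at -0.64, Fen1 at -0.50 and Rrm2 at -0.49. Of 17 anaphase promoting complex genes 2 rose, Anapc7 by 0.72 and Anapc1 by 0.45, and 0 fell, with a median of 0.073 and 5 of the 17 negative. Of 19 regulators of G2 and mitosis transcription, Rbl2 (p130), a pocket protein of resting cells, rose by 0.93 and Rbbp4, a histone chaperone of the MuvB core, changed by -0.46. Of 12 CDK inhibitors and cell cycle exit genes 3 fell, namely Ccng2 (-0.85), Cdkn2d (-0.73) and Cdkn2c (-0.64).

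Markers of the cells in the liver moved as well. Without Pogz+/+ replicate 1, 2.07% of all genes were called lower and 2.41% higher, and the all-gene median was -0.10. The summed signal of the 53 members lay between 107346 and 110704 in the Pogz+/+ arrays and between 90113 and 94521 in the Pogz−/− arrays. The sum over all genes was also higher in every Pogz+/+ array (7573400 to 9150430) than in the Pogz−/− arrays (6919910 to 7116650), and such linear sums are carried by the brightest genes. The sum over 15 erythroblast markers lay from 109362 to 127962 across the Pogz+/+ arrays and from 82898 to 89542 across the Pogz−/− arrays, and 5 of the 15 fell without replicate 1 (Slc4a1, Alas2, Ermap, Tfrc and Klf1) and 0 rose. Of 9 early progenitor markers 2 rose, Kit by 0.91 and Myb by 0.45, while 5 of the 9 had negative log2 fold changes and the median was -0.19. The list summed to between 2292 and 2923 in Pogz+/+ and between 3425 and 3814 in Pogz−/− arrays. Of 13 hepatocyte and hepatoblast markers Afp fell, and the sum was 28643 to 51526 and 17479 to 28212. Of 12 granulocyte markers 4 rose (Camp, Lcn2, Ltf and Ctsg), with sums of 49529 to 85889 and 50113 to 57547 that overlapped. Macrophage, megakaryocyte, and endothelial and stromal markers had 0 called, and of 10 lymphoid markers Nkg7 rose and Zap70 fell. No marker of erythroblasts, granulocytes or hepatocytes lay under the all-gene median signal, while 5 of 10 lymphoid and 5 of 12 endothelial and stromal markers did. The part of these cell types in the lower G2 and mitosis signals was not tested.

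**Figure D5:**
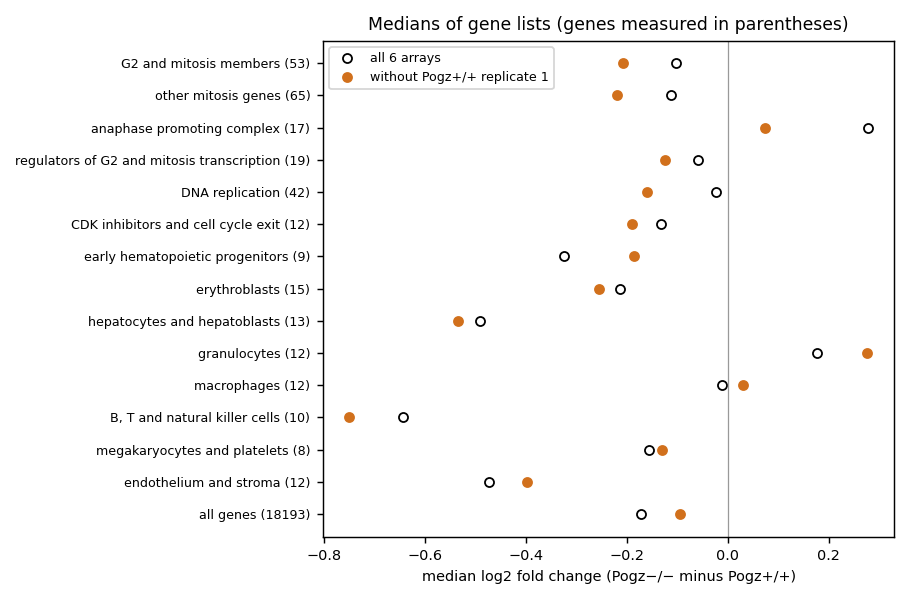
Median log2 fold change (Pogz−/− minus Pogz+/+, x axis) of each gene list, with all 6 arrays (open) and without Pogz+/+ replicate 1 (filled), on the deposited scale; under median centring the members' medians were 0.36 and 0.064. The members moved from -0.10 to -0.21 when that array was left out, while all 18193 genes moved from -0.17 to -0.10.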

How the data were processed

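RNA of 6 E14.5 fetal liver samples (100 ng each) was labelled with a 3′ in vitro transcription kit and hybridized to 1-colour arrays. The deposited values are linear intensities per probe set, made by the authors with Affymetrix Expression Console (version and algorithm not given in the sources used here), and each array had a 2% trimmed mean intensity of 150.001. From 45101 probe sets 64 controls were left out. Probe sets annotated to 1 gene (34945) were kept for genes, 932 named several genes and 9160 none. The brightest by mean log2 over 6 arrays stood for each gene. Values were log2 transformed with no pseudocount or further scaling. Genotypes were compared with limma 3.58.1 in R 4.3.3, two-sided, with Benjamini-Hochberg adjustment over all genes: plain variances over 6 arrays, and trend and robust variances without Pogz+/+ replicate 1. The steps were tested on simulated data. Labels do not say that replicates came from separate litters, so p-values measure the spread between these arrays, whose small number limits the precision.

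Members and lists were chosen with earlier results of these data known. Values in every array are given for members called, for the largest moderated t of each role over 6 arrays and for the 3 largest rises and falls of each comparison; those of Ccnb2, Mki67 and the dimmer Smc4 probe set were added after their values were seen. Other list genes are named if called, by moderated t. Alternatives were quantile normalization, median centring, leaving out dim genes, a replicate block, other probe set rules, the methods' t-test, a 1.5-fold minimum, other variance settings, leaving out each array and, added after seeing the data, array weights.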

Additional observations from a re-analysis of the deposited data

How the results depend on the processing

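With 6 arrays the count of members called was 0 under every alternative run except array quality weights with trend and robust variances, which gave Pogz+/+ replicate 1 a weight of 0.209 (the others 1.08 to 1.66) and called 9 lower, all of them among the 13. Median centring moved the 6-array median from -0.10 to 0.36 and turned the sign of 26 of 53 members, among the 18 called or most changed genes Cdk1 (0.21), Cdc25b (0.068), Plk1 (0.14), Kif23 (0.021) and Cenpf (0.021). The mean of all probe sets turned 11, among them Kif23 (0.42), Nek2 (-0.16), Bub1 (-0.014) and Kif11 (-0.069). Without Pogz+/+ replicate 1, the 13 genes called lower became 2 under median centring (3 higher, median 0.064), 0 with the mean of all probe sets, 0 by the methods' t-test, 5 with a change of at least 1.5-fold and 0 with plain variances. Leaving out a further array left 1 to 12: 2 without Pogz+/+ replicate 2, 1 without Pogz+/+ replicate 3, 12, 7 and 2 without Pogz−/− replicates 1, 2 and 3. With a lone Pogz+/+ array the spread was taken from the Pogz−/− arrays. Signs turned for 22 members under median centring, 6 under quantile normalization and 8 with the mean of probe sets. Among the same 18 genes they turned for Anln under quantile normalization (-0.022), for Nek2 (-0.26), Bub1 (-0.15) and Kif11 (-0.11) with the mean of probe sets, for Nek2 without Pogz+/+ replicate 3 (range over arrays left out -0.047 to 0.46) and for Anln without Pogz+/+ replicate 3 or Pogz−/− replicate 3 (-0.061 to 0.11). None of these named genes had been called in the comparison concerned. Of the other gene values without Pogz+/+ replicate 1, 152 kept direction and side of the threshold, 91 kept direction and lost the call and 2 gained it. The cause was not tested.

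The deviations of same-numbered arrays from their genotype's mean correlated at r of 0.004, -0.009 and -0.013 over all genes. Between differently numbered arrays r ran from -0.015 to 0.024. Such values cannot show whether same-numbered arrays had a litter or a batch in common. A replicate block gave 15 genes called lower without Pogz+/+ replicate 1 and 0 with 6 arrays. Without Pogz+/+ replicate 1, Pogz−/− replicate 1 was alone in its block and added nothing to the genotype effect. The 15 calls thus rest on replicates 2 and 3 of each genotype.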
